A study of Mus musculus with 1528 samples.

Results

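Macrophages speak to T cells through ligands on their surface, and 6 of the genes that encode them were followed here in single bone marrow-derived macrophages (BMDMs): Pdcd1lg2, Cd274, Cd80, Cd86, Cd40 and Icosl. They were chosen by name, as 5 genes of the B7 family and the TNF receptor family gene Cd40, out of 55421 genes in the count table. All 6 were among the 17034 genes that passed the filter on low values and were tested between treatments.

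The B7 family ligands bind receptors of the CD28 family on T cells. Cd274 encodes PD-L1 and Pdcd1lg2 encodes PD-L2, which engage PD-1 and restrain T cells. Cd80 and Cd86 bind CD28 to co-stimulate a T cell and CTLA-4 to restrain it, and Icosl binds ICOS. CD40 works in the other direction: it receives CD40L from T cells and signals through TRAF proteins and NF-kB. PD-L2 is a known target of IL4 and STAT6 in macrophages, whereas PD-L1 is best known as a target of interferons, and NF-kB acts on several of these genes.

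The data were Smart-seq2 libraries, which sequence the whole transcript, of wild-type C57BL/6 BMDMs (C57BL/6J in the study's methods) from 2 mice. Bone marrow cells were grown with CSF1 for 7 days, reseeded with CSF1 and stimulated from the next day. They were kept for 24 h in IL4+IL13, either alone or with TNF added (IL4+IL13+TNF). IL4, IL13 and TNF were each given at 10 ng/ml. Every cell had therefore received IL4 and IL13, and none was unstimulated. Live cells were sorted singly into 4 plates, 2 for each mouse, with IL4+IL13 in the upper rows and IL4+IL13+TNF in the lower rows of every plate. Treatment and position on the plate therefore cannot be told apart. The comparison asks how TNF, given together with the IL4 and IL13 that drive “M2” polarization, changed the ligand genes.

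Of 1524 wells with a group, 1386 were kept, with 333 to 357 cells for each mouse and treatment and a median of 447264 to 490310 fragments per cell. For shares of cells, each cell was thinned to 339000 fragments, which left 303 to 332 cells for each mouse and treatment. The labelled cell type was checked on 8 macrophage markers: Adgre1, Csf1r, Cd68 and Lyz2 were found in at least 99.0% of the thinned cells of every mouse and treatment, and Cd14 and Itgam in at least 92.4%. Fcgr1 was found in 59.3% and 59.9% of cells with IL4+IL13 and in 24.1% and 36.3% with TNF, and Mertk in 22.9% and 35.6% against 16.2% and 22.5%. Both were lower with TNF (log2 fold change -1.73 and -1.22, edgeR adjusted p = 0.135 and 0.679, or 0.00798 and 0.0317 with the mouse as a replicate block), and Lyz2 was higher (1.00, 0.135, or 0.00743 with the block); the part of these markers in the results was not tested. Genes of B cells were found in at most 4.25% of the cells of a mouse and treatment, of NK cells in 1.29% and of mast cells in 1.96%. The T cell gene Trac reached 18.7%, and Cd40lg, the gene of the CD40 ligand, 22.8%, both in mouse 1. These shares give a scale for the rarer ligands. S100a8, a neutrophil gene, reached 32.4%, at a summed level of at most 4.46 CPM.

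The sequences before the starts of the ligand genes are shown first, because Pdcd1lg2 and Cd274 are neighbours that moved together while Cd80 did not. The 250 bases before the RefSeq start of each gene are given 5′ to 3′ on the + strand in GRCm38.p6, the same assembly as mm10, at chr19:29410669-29410918 for Pdcd1lg2, chr19:29367188-29367437 for Cd274 and chr16:38458683-38458932 for Cd80. Capitals mark the bases that matched a searched motif on either strand.
Pdcd1lg2: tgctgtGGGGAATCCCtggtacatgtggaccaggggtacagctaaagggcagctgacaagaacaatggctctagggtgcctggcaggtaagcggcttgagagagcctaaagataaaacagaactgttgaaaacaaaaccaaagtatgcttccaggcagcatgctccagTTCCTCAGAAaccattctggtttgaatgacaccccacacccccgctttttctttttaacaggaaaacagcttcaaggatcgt
Cd274: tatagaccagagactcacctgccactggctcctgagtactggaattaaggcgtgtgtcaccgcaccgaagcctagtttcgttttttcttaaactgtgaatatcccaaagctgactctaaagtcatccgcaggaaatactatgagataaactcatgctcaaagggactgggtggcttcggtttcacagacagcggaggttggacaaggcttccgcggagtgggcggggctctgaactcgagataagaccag
Cd80: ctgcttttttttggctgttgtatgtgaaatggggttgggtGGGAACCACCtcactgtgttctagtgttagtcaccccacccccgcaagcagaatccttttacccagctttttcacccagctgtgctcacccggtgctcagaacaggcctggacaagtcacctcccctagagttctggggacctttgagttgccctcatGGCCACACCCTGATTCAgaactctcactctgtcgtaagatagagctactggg

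The motifs reported were a kappaB-like motif (GGG, any 5 bases, CC), a STAT6-like motif (TTC, any 4 bases, GAA), an IRF-like motif (GAAA, any 2 bases, GAAA) and an AP-1-like motif (TGA, any 1 base, TCA). Among 32851 mouse promoters of the same length, 45.8% held the kappaB-like motif, 5.85% the STAT6-like, 2.98% the IRF-like and 6.75% the AP-1-like. The Pdcd1lg2 window held 1 kappaB-like match, GGGGAATCCC, 244 to 235 bases before the start, and 1 STAT6-like match, TTCCTCAGAA, 82 to 73 bases before it. The Cd274 window held none of the 4. The Cd80 window held 2 kappaB-like matches and 1 AP-1-like match, TGATTCA, which directly follows the match nearer to the start. The Icosl window, at chr10:78069118-78069367, held 2 kappaB-like matches that do not overlap and no other. A match is a description of letters and not of binding. The RefSeq start lay at the start given in the count table for Pdcd1lg2, 17 bases before it for Cd274, 66 bases after it for Icosl and 3372 bases after it for Cd80. No promoter was printed for Cd86 or Cd40.

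TNF was accompanied by higher expression of both PD-1 ligands in both mice. Pdcd1lg2 was 5.71-fold and Cd274 2.88-fold higher with IL4+IL13+TNF than with IL4+IL13, whereas Cd80 and Cd40 stayed near their level. Cd86 was higher by an amount that differed between the mice, and Icosl was the lowest of all in level. Counts summed over the cells of each mouse and treatment were tested in edgeR (quasi-likelihood F-test). P-values were adjusted by Benjamini-Hochberg for all genes tested, with a threshold of 0.05. This test called 0 of the 6 genes, and 0.00587% of all genes as higher with TNF, with 3 of the 6 at an unadjusted p under 0.05 against 8.1% of all genes. With the mouse as a replicate block, which compares the treatments within each mouse, Pdcd1lg2 and Cd274 passed and the other 4 did not. The block called 1.94% of all genes as higher. DESeq2 without the block called the same 2 of the 6 and 1.79% of all genes as higher. The CPM of both mice with TNF lay above that of both mice without it for 4 of the 6 genes, Pdcd1lg2, Cd274, Cd86 and Icosl, against 18.6% of all genes tested. The median log2 fold change was 1.06 over the 6 genes and 0.0038 over all genes tested. A test of a value on its own, an exact permutation test of 2 mice against 2, cannot give a two-sided p below 0.333.

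Pdcd1lg2, which encodes PD-L2 (ENSMUSG00000016498, chr19:29410919-29471161, + strand), had a level of 2.30 CPM in mouse 1 and 4.93 CPM in mouse 2 with IL4+IL13, where CPM is the usual depth-scaled count of a gene, here with TMM scaling of the sums. With TNF it had 16.1 CPM in mouse 1 and 25.2 CPM in mouse 2, so that the groups did not overlap and mouse 2 was the higher in each. The log2 fold change was 2.51 ± 0.48 (SE, 2 mice in each group), with an edgeR adjusted p of 0.271. With the mouse as a replicate block it was 2.58 ± 0.22 with an adjusted p of 0.0109. The fold was 5.92 in mouse 1 and 4.73 in mouse 2.

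Cd274, which encodes PD-L1 (ENSMUSG00000016496, chr19:29367455-29388095, + strand), started from a higher level. It had 27.2 CPM in mouse 1 and 40.1 CPM in mouse 2 with IL4+IL13, and 88.1 CPM and 106 CPM with TNF. Again every value with TNF lay above every value without. The log2 fold change was 1.52 ± 0.26 (SE, 2 mice in each group) with an edgeR adjusted p of 0.236, and 1.55 ± 0.13 with an adjusted p of 0.0107 with the mouse as a replicate block. The fold was 3.20 in mouse 1 and 2.61 in mouse 2.

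**Figure D1:**
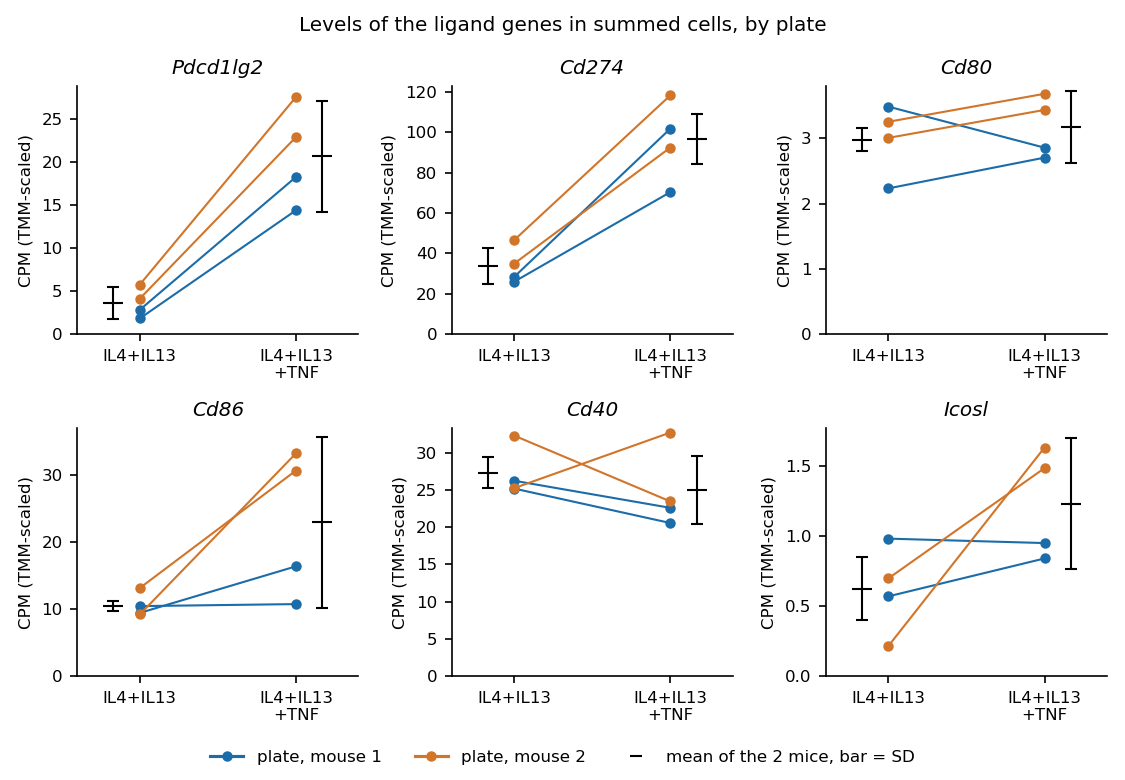
TMM-scaled CPM (linear axes from 0) of the 6 ligand genes in cells summed by plate, with lines joining the treatments of a plate, colours for the mice, and the mean ± SD of the 2 mice beside each treatment. All 4 lines of Pdcd1lg2, of Cd274 and of Cd86 go up with TNF, for Cd86 very little on a plate of mouse 1. For Cd40 the lines of mouse 2 cross.

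The 4 plates served as technical batches, since each holds both treatments of a single mouse. Pdcd1lg2 lay between 1.81 and 5.73 CPM on the 4 plates with IL4+IL13 and between 14.4 and 27.5 CPM with TNF. Its log2 difference within a plate ran from 2.17 to 2.69. Cd274 lay between 25.9 and 46.5 CPM and between 70.3 and 118 CPM, with differences of 1.34 to 1.83. Both genes were higher with TNF on 4 of 4 plates, with no overlap between treatments. Cd86 was also higher on 4 of 4 plates, where the treatments overlapped. The share of all genes that do so by plate was not counted, and plates of the same mouse are not separate replicates. In the rows of wells next to the border between the treatments, the log2 fold change was 3.30 for Pdcd1lg2 and 1.28 for Cd274.

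Both genes were found in a larger share of cells with TNF. At equal depth, Pdcd1lg2 was found in 7.83% (exact Clopper-Pearson 95% interval 5.18 to 11.3) of the cells of mouse 1 and 9.71% (6.65 to 13.6) of those of mouse 2 with IL4+IL13. With TNF it was found in 24.1% (19.4 to 29.3) and 31.7% (26.5 to 37.2). Cd274 was found in 44.9% (39.4 to 50.4) and 52.8% (47.0 to 58.4) of cells with IL4+IL13, and in 77.6% (72.4 to 82.1) and 85.3% (80.8 to 89.1) with TNF. The intervals of the 2 treatments were apart in each mouse for both genes, and they cover counting error only, since the protocol has no molecular identifiers and cells share their mouse. The share of Cd274 was larger by 32.7 and 32.5 percentage points in the 2 mice, and that of Pdcd1lg2 by 16.3 and 21.99 points.

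The level within the cells that had the gene was higher too. The mean over cells with at least 1 fragment of Pdcd1lg2 was 28.9 and 47.9 CPM with IL4+IL13 and 62.3 and 81.9 CPM with TNF, which is 2.15-fold and 1.71-fold within the mice. For Cd274 it was 58.2 and 73.8 CPM against 101 and 125 CPM, or 1.74-fold and 1.69-fold. The share of cells was 3.08-fold and 3.27-fold larger for Pdcd1lg2, a larger ratio in each mouse than that of its level within those cells. For Cd274 the share was 1.73-fold and 1.62-fold larger, close to the ratio of the levels. Pdcd1lg2 without TNF was a rare transcript: the top 5% of cells held 96.5% and 95.9% of its fragments, against 56.3% and 49.7% with TNF. This follows largely from the share of cells that had it. The rarer Cd80 had a mean of 97.7% without TNF and 92.2% with it, and Icosl 87.7% and 95.3%.

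**Figure D2:**
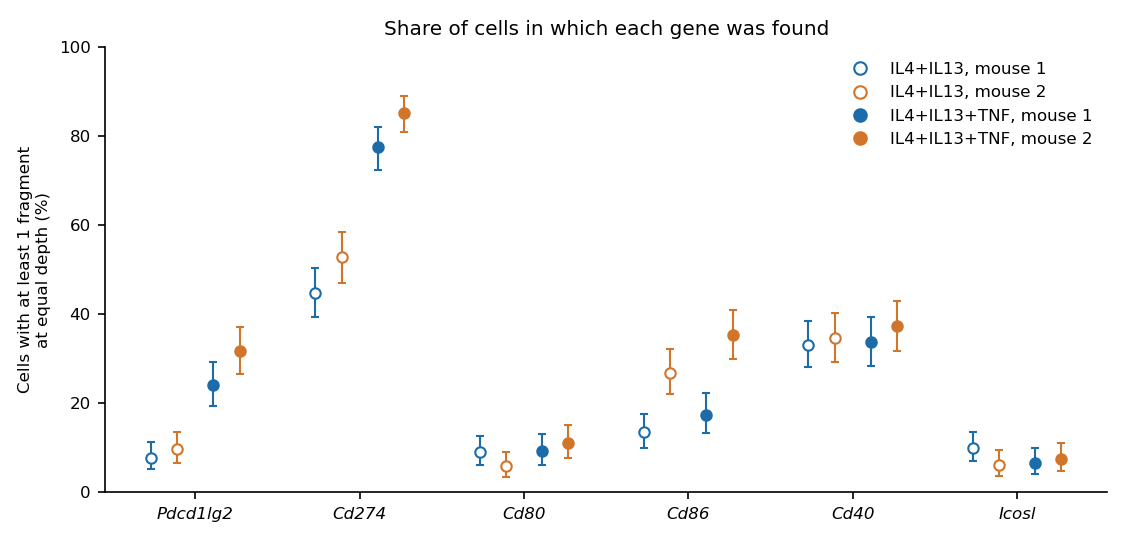
Percentage of cells in which each gene had 1 fragment or more after thinning to 339000 fragments (y axis, percent), for each mouse (colour) and treatment (open, IL4+IL13; filled, IL4+IL13+TNF), with exact 95% intervals. Pdcd1lg2 and Cd274 separate by treatment, Cd86 separates by mouse, and the other 3 do neither.

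Of the CD28 ligands, Cd86 (ENSMUSG00000022901, chr16:36603869-36666081, - strand) stood at 9.94 CPM (mouse 1) and 10.96 CPM (mouse 2) without TNF, and at 13.9 CPM and 31.9 CPM when TNF was added. The groups did not overlap, and the difference was larger in mouse 2, at 2.83-fold, than in mouse 1, at 1.38-fold. Whether the mice differed was not tested, since each has a single sum in each treatment. The log2 fold change was 1.13 ± 0.44 (SE, 2 mice in each group) with an edgeR adjusted p of 0.611, and the adjusted p was 0.132 with the mouse as a replicate block. The difference within a plate ran from 0.04 to 1.80 on the log2 scale, and the lowest was on a plate of mouse 1.

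The share of cells with Cd86 differed more between the mice than between the treatments. It was 13.6% in mouse 1 and 26.9% in mouse 2 with IL4+IL13, and 17.5% and 35.3% with TNF. In mouse 2 without TNF the median of the cells with Cd86 was 2.95 CPM, which is a single fragment at this depth. Asking for at least 5 fragments gave 8.43% and 7.12% of cells with IL4+IL13 and 11.6% and 19.3% with TNF, so that mouse 2 was no longer the higher without TNF.

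Cd80 (ENSMUSG00000075122, chr16:38455561-38496335, + strand), the other CD28 ligand, did not separate by treatment. It had 2.86 and 3.11 CPM with IL4+IL13 and 2.78 and 3.57 CPM with TNF. The log2 fold change was 0.09 ± 0.34 (SE, 2 mice in each group) with an edgeR adjusted p of 0.985, and its sign changed with the scaling: scaled by library size alone it was -0.0018. Cd80 was found in 9.04% and 5.83% of cells with IL4+IL13 and in 9.24% and 11.1% with TNF. These shares were not far above the 4.25% reached by B cell genes. The T cell gene Trac reached 18.7% in mouse 1, at a median of 1 fragment in the kept cells that had it, but at most 2.59% in mouse 2. At least 5 fragments of Cd80 were found in 3.31% and 2.59% of cells with IL4+IL13 and in 4.95% and 5.88% with TNF.

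Cells with both CD28 ligands were rare. Fragments of Cd80 and Cd86 were found together in 2.11% and 0.647% of cells with IL4+IL13 and in 0.660% and 4.90% with TNF. The product of their single shares would give 1.22% and 1.56%, and 1.62% and 3.92%. The shares found thus lay on both sides of the product, which was itself small. Cells with neither made up 58.5% to 79.5%.

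Cd40 (ENSMUSG00000017652, chr2:165055627-165072948, + strand), the receptor for CD40L, was among the higher ligand genes without TNF and was no higher with it. Its level was 25.8 and 28.8 CPM with IL4+IL13 and 21.7 and 28.2 CPM with TNF. The groups overlapped, and the log2 fold change was -0.13 ± 0.23 (SE, 2 mice in each group) with an edgeR adjusted p of 0.952. The sign was not stable across scalings, since scaling by the spike-ins gave 0.0074, in a fit where the median of all genes was 0.15. Cd40 was found in 33.1% and 34.6% of cells with IL4+IL13 and in 33.7% and 37.3% with TNF. The 4 plates went both ways, with log2 differences from -0.45 to 0.37.

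Genes that act downstream of CD40, many of which also serve TNF receptors, included several with large differences. Of 16 listed genes of CD40 signalling, 10 were higher with TNF in both mice and 2 were lower in both, against 34.3% and 32.4% of all genes tested. The median log2 fold change of the list was 0.50. With the mouse as a replicate block 6 passed as higher and 0 as lower, against 1.94% and 1.88% of all genes. Without the block 0 passed, with 7 at an unadjusted p under 0.05 against 8.1% of all genes. DESeq2 called 7 as higher, against 1.79% of all genes.

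Among them Tnfaip3, which encodes the NF-kB inhibitor A20, had 8.98 and 16.1 CPM with IL4+IL13 and 63.3 and 66.0 CPM with TNF (log2 fold change 2.37 ± 0.33 SE, blocked edgeR adjusted p = 0.0124). Traf1, an adaptor of TNF family receptors, had 14.6 and 13.8 against 60.8 and 81.5 CPM (2.32 ± 0.23, 0.00798). Relb, an NF-kB subunit of the non-canonical pathway, had 7.63 and 11.6 against 37.3 and 52.6 CPM (2.22 ± 0.32, 0.00743). Birc3, the ubiquitin ligase cIAP2, had 28.3 and 52.9 against 123 and 150 CPM (1.75 ± 0.35, 0.0139). These 4 were picked as the largest differences that went the same way in both mice.

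Icosl (ENSMUSG00000000732, chr10:78069302-78083913, + strand), the ligand of ICOS, was close to the limit of detection. It had 0.785 and 0.467 CPM with IL4+IL13 and 0.905 and 1.56 CPM with TNF, so that the groups did not overlap although all values were low. The log2 fold change was 0.98 ± 0.51 (SE, 2 mice in each group) with an edgeR adjusted p of 0.734, and 0.324 with the mouse as a replicate block. The share of cells went the other way in mouse 1, from 9.94% to 6.60%, and from 6.15% to 7.52% in mouse 2. In cells that had Icosl the median was 1 or 2 fragments, and at least 5 fragments were found in at most 2.11% of cells.

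Levels between genes were compared per kilobase of the gene length in the count table. With IL4+IL13 the order was Cd274 (9.30 ± 2.52 CPM per kilobase, SD, n = 2), Cd40 (8.02 ± 0.62), Cd86 (2.86 ± 0.20), Pdcd1lg2 (1.85 ± 0.95), Cd80 (0.805 ± 0.047) and Icosl (0.136 ± 0.049). The neighbours Cd274 and Cd40 lay within their spread, and Cd86 and Pdcd1lg2 were separated by about their SDs. With TNF the order was Cd274 (26.7 ± 3.4), Pdcd1lg2 (10.5 ± 3.3), Cd40 (7.33 ± 1.34), Cd86 (6.26 ± 3.48), Cd80 (0.857 ± 0.150) and Icosl (0.267 ± 0.101). Pdcd1lg2, Cd40 and Cd86 could not be put in order beyond their spread there. Cd274 stayed above Pdcd1lg2 per kilobase in every sum, by 6.40-fold and 4.40-fold with IL4+IL13 and by 2.96-fold and 2.27-fold with TNF.

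More cells held both PD-1 ligands with TNF, about as many as the shares of each gene would give. Fragments of both were found in 5.72% and 4.85% of cells with IL4+IL13 and in 18.5% and 26.5% with TNF. The product of the single shares would give 3.51% and 5.12%, and 18.7% and 27.04%. The share lay above the product in mouse 1 with IL4+IL13, where it rests on 19 cells, and close to it in the other 3 groups of cells. Cells with neither ligand made up 53.0% and 42.4% with IL4+IL13 and 16.8% and 9.48% with TNF.

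**Figure D3:**
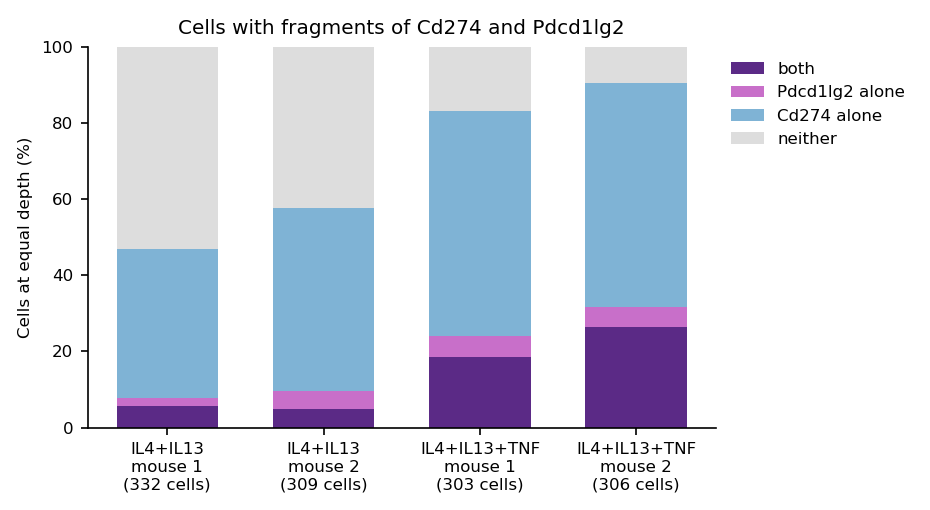
Stacked shares (y axis, percent of thinned cells) with fragments of both PD-1 ligands, of Pdcd1lg2 alone, of Cd274 alone or of neither, for each mouse and treatment. The share with both goes from 5.72% and 4.85% to 18.5% and 26.5%. Of the cells with Pdcd1lg2 50.0% to 83.5% also have Cd274, against 42.5% to 86.1% of the cells without it.

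Across single cells the rank correlations among the 6 genes were weak. This does not show that they were independent, since many cells lacked each of the rarer genes. Spearman's rho was computed for the 15 pairs within each mouse and treatment over 303 to 332 thinned cells, which share plate, depth and many zeros, and is given as a description. The highest mean over the 4 groups of cells was 0.11, for Pdcd1lg2 and Cd80, with a range of 0.01 to 0.17. The lowest was -0.04, for Cd80 and Icosl. For the PD-1 ligands the mean was 0.02, from -0.06 to 0.18. Among cells with Pdcd1lg2, Cd80 was found in 23.1% and 6.67% with IL4+IL13 and in 19.2% and 15.5% with TNF, against 7.84%, 5.73%, 6.09% and 9.09% of the cells without it.

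The number of ligand genes found per cell was larger with TNF. The mean was 1.18 and 1.36 of the 6 with IL4+IL13 and 1.69 and 2.08 with TNF. This mean is the sum of the shares of cells of the 6 genes, so it is not a separate result. The largest differences in share were those of Cd274 (32.7 and 32.5 percentage points) and Pdcd1lg2 (16.3 and 21.99 points). Cells with none of them made up 23.8% and 19.7%, and 10.9% and 2.94%. At least 3 were found in 7.53% and 12.3% of cells with IL4+IL13 and in 21.8% and 27.8% with TNF. All 6 were found in 1 of 1250 cells.

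Rank correlations with the scores of 7 gene lists were weak and are given as a description. Pdcd1lg2 went with the score of 7 MHC class II genes, which present antigen to T helper cells, with a rho of 0.15 and 0.19 with IL4+IL13 and 0.15 and 0.30 with TNF. Cd274 did not (mean -0.04, range -0.11 to -0.00017), and went weakly with the score of 9 interferon-induced genes (mean 0.10, range 0.05 to 0.14). Cd40 was weakly positive with each of the 7 scores, from 0.05 with cycling genes to 0.10 with NF-kB feedback genes and with the “signature” M2 genes. The number of genes detected per cell, a measure of cell size and library quality, had a mean rho of 0.12 with Cd86 and 0.05 to 0.08 with the others, and its part in these values was not tested.

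Several of these scores moved between the treatments themselves. The summed level of the MHC class II genes was 1062 and 2021 CPM with IL4+IL13 and 2476 and 4131 CPM with TNF. With the mouse as a replicate block 4 of 7 passed as higher, against 1.94% of all genes called higher by the block. The 8 NF-kB feedback genes were all higher in both mice and 7 passed, whereas 0 of 9 interferon genes did. Tnfaip3, Relb, Nfkb1 and Nfkb2 of the feedback list are also in the CD40 signalling list, so these counts are not separate. Icam1 is also in the list of other ligands given below. All 6 “signature” genes, a list that the study names in its account of these same cells and that is not independent evidence here, were lower in both mice and 5 passed as lower. Of 6 cycling genes 5 passed as lower, against 1.88% of all genes called lower by the block. Without the block 0 of these genes passed in edgeR, and the counts at an unadjusted p under 0.05 were 4 of 7, 7 of 8, 0 of 9, 6 of 6 and 4 of 6 in the same order, against 8.1% of all genes. DESeq2 called 2, 7, 0, 5 and 1, against 1.79% of all genes called higher and 1.72% called lower.

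**Figure D4:**
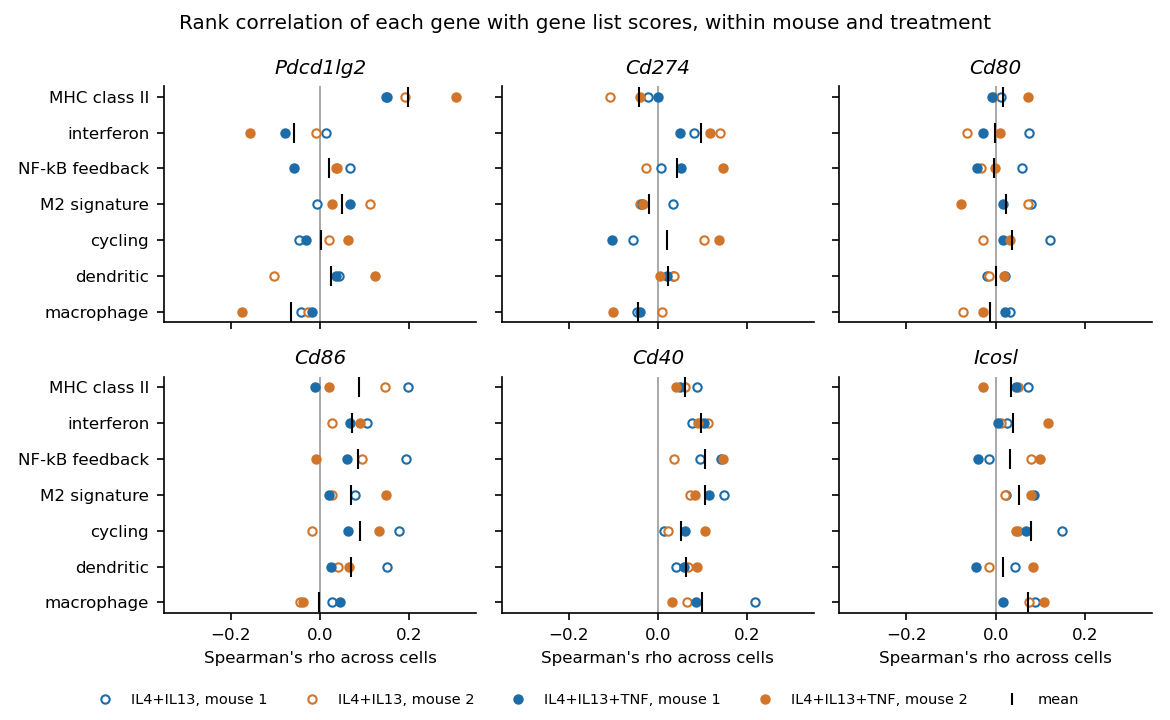
Spearman's rho (x axis) of each ligand gene with the mean log2(CPM + 1) of 7 gene lists (y axis) across thinned cells, within each mouse and treatment (points), with the mean of the 4 groups as a bar. Pdcd1lg2 lies at 0.15 to 0.30 for MHC class II in all 4 groups, where Cd274 lies at or below 0.

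Among 8999 genes found in at least 25% of thinned cells of every mouse and treatment, those most like Pdcd1lg2 were H2-Aa (mean rho 0.19, range 0.10 to 0.34 over the 4 groups of cells), Batf3 (0.18), Cd74 (0.17), H2-Ab1 (0.16) and Selplg (0.15). H2-Aa, H2-Ab1 and Cd74 belong to the MHC class II pathway, and Batf3 is a transcription factor of the AP-1 family. Those most like Cd274 were Irf1 (0.17, range 0.10 to 0.23), the interferon-regulated transcription factor, then Sh3glb1 (0.15), Ppp1r12a (0.14), Sap30 (0.13) and Insl6 (0.12). Insl6 lies within 200000 bases of Cd274 on chromosome 19.

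For Cd80 they were Isy1 (0.11), Nop14 (0.10), Ngdn (0.10), Mplkip (0.10) and Gnl2 (0.10). For Cd86 they were Cks1brt (0.17), Cks1b (0.16), Krtcap2 (0.16), Mthfd2 (0.15) and Avpi1 (0.15), of which the Cks1 genes act in the cell cycle and are near copies, so that their counts are uncertain. For Cd40 they were the complement gene C1qb (0.19), Ap2m1 (0.18), the chemokines Ccl7 (0.18) and Ccl2 (0.18), and Gm13509 (0.16). For Icosl they were Cep85 (0.15), Serinc3 (0.14), Maf (0.13), Rpl30-ps3 (0.12) and Gm42031 (0.12). The median gene had a mean rho of 0.0027 to 0.016 with the ligand genes, and all these values are small.

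A few cells with much Ccr7 carried a sizeable part of some ligand transcripts. Ccr7, the chemokine receptor of mature dendritic cells, had at least 5 fragments in 22 of the 1386 kept cells, a cutoff chosen after its values were seen. Of these cells 21 had received TNF, 2 of mouse 1 and 19 of mouse 2. They held 98.6% and 99.5% of the Ccr7 fragments of their group, which follows in part from the cutoff. In mouse 2 with TNF the 19 cells, 5.44% of the total, held 19.6% of the Pdcd1lg2 fragments, 23.95% of those of Cd86, 27.1% of Cd40, 31.6% of Icosl, 11.6% of Cd80 and 8.68% of Cd274.

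In these cells Cd274 was found in 20 of 21 and Pdcd1lg2 in 14 of 21. Cd86 was found in 12, Cd40 in 10, Cd80 in 5 and Icosl in 5. Without thinning, all kept cells with TNF had Cd274 in 81.0% (mouse 1) and 85.7% (mouse 2), and Pdcd1lg2 in 25.9% and 33.2%. Cd86 was in 18.7% and 39.8% of them, Cd40 in 34.9% and 40.1%, Cd80 in 9.51% and 12.6%, and Icosl in 8.07% and 9.17%. Scaled by library size, Cd274 in mouse 1 was lower in the Ccr7 cells (21.1 CPM) than in the rest (84.9 CPM). In mouse 2 it was higher (174 against 99.5 CPM). Of the other dendritic markers, Cacnb3 was found in 14 of the 22 cells and Fscn1 in 13, against 4.18% and 2.05% of all other kept cells, Zbtb46 in 6, Dpp4 in 4, Cd209a in 3 and Siglech in 2, while Clec9a and Xcr1 were found in 0. Flt3 was found in 18 of the 22, but also in 93.3% of the other cells. The summed level of the 10 dendritic markers was 10.4 and 14.9 CPM with IL4+IL13 and 34.4 and 240.2 CPM with TNF. Ccr7, the gene by which these cells were picked, made up 0.112 and 0.450 CPM of these sums with IL4+IL13. With TNF it made up 20.5 and 190 CPM. Of the 5 tested, Ccr7 among them, 4 were higher in both mice, against 34.3% of all genes tested. The block called 1 of the 5, Ccr7, and DESeq2 called 2, Ccr7 and Cacnb3, against 1.94% and 1.79% of all genes called higher. Without the block edgeR called 0, with 2 at an unadjusted p under 0.05 against 8.1% of all genes.

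Left out of the sums, these 22 cells changed the PD-1 ligands little. The log2 fold change without them was 2.31 ± 0.47 for Pdcd1lg2 and 1.499 ± 0.26 for Cd274 (SE, 2 mice in each group), and with the mouse as a replicate block the edgeR adjusted p was 0.00821 and 0.00648. Cd86 went to 0.89, Icosl to 0.63 and Cd40 to -0.33, with blocked adjusted p of 0.136, 0.453 and 0.288. In mouse 2 with TNF the level of Cd40 was 145 CPM in the 19 cells and 21.2 CPM in the rest, scaled by library size, whereas in mouse 1 it was 0 in the 2 cells and 20.98 CPM in the rest.

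Cd274 and Pdcd1lg2 lie on chromosome 19 on the same strand, with 22823 bases between the end of the first and the start of the second. Of 10 genes within 200000 bases of the pair, 9 were tested. Jak2, a kinase of cytokine receptors, was higher with a log2 fold change of 1.05 ± 0.48 (SE, 2 mice in each group) and an adjusted p of 0.681, or 0.0295 with the mouse as a replicate block. Insl6 had 0.61, and Plgrkt, which lies next to the Cd274 start on the opposite strand, had -0.010. Past Pdcd1lg2, Ric1 had -0.09 and Ermp1 -0.43.

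The other 2 tested genes overlap the ligand genes on the opposite strand. AC119228.1 lies within Cd274 and had 1.38 ± 0.64, and A930007I19Rik overlaps the end of Pdcd1lg2 and had 1.599 ± 0.38. Counting did not use strand, so that reads from these genes and from Cd274 and Pdcd1lg2 cannot be told apart. Over the kept cells they had 3985 and 2294 fragments, against 44040 and 8192 for Cd274 and Pdcd1lg2.

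**Figure D5:**
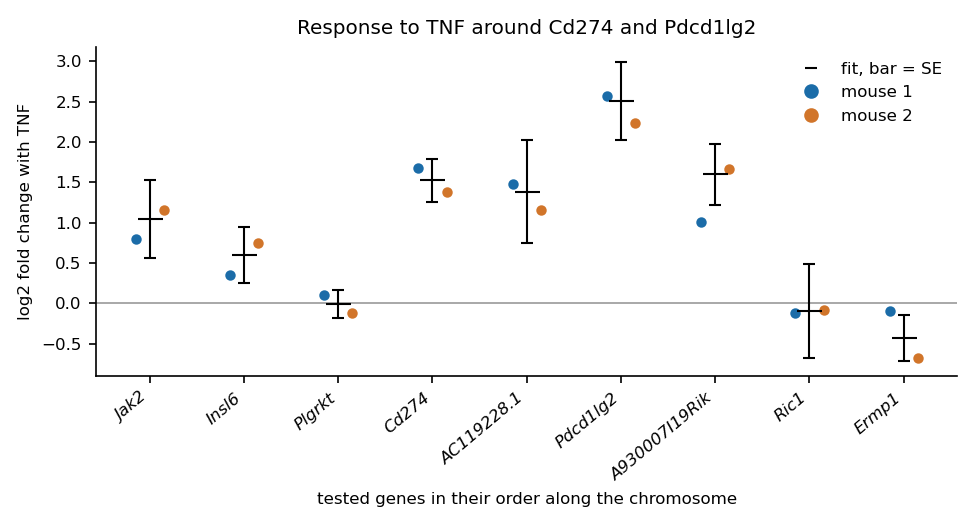
Log2 fold change with TNF (y axis) of the 9 tested genes around Cd274 and Pdcd1lg2, in their order along the chromosome, from the fit (bar, SE) and in each mouse (points). The values are highest for Cd274 and Pdcd1lg2 and the genes that overlap them, and near 0 for Plgrkt and Ric1.

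Other ligands by which antigen-presenting cells act on T cells did not move as a body. Of 25 listed, 16 were tested, 9 were higher with TNF in both mice and 3 lower in both, against 34.3% and 32.4% of all genes tested, and the median log2 fold change was 0.17. With the mouse as a replicate block 3 passed as higher and 2 as lower, against 1.94% and 1.88% of all genes. Without it 0 passed, with 6 at an unadjusted p under 0.05 against 8.1% of all genes, and DESeq2 called 4 as higher and 1 as lower, against 1.79% and 1.72%.

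Icam1, an adhesion ligand of the integrin LFA-1, had 16.8 and 25.4 CPM with IL4+IL13 and 131 and 100.3 CPM with TNF (log2 fold change 2.45 ± 0.29 SE, blocked edgeR adjusted p = 0.0148). Tnfsf8, the CD30 ligand, went from 4.25 and 6.61 to 0.751 and 0.882 CPM (-2.73 ± 0.41, 0.0186). Cd200, an inhibitory ligand, had 1.14 and 0.320 against 6.55 and 11.4 CPM (3.63 ± 0.74, 0.0571). Tnfsf14, the LIGHT ligand, had 4.62 and 0.917 against 0.860 and 0.0341 CPM (-2.63 ± 1.51, 0.0562). The first 2 passed with the block and the other 2 did not.

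The T cell side of these pairs was mostly out of sight, in cultures where 4 of 6 T cell genes (Cd3d, Cd3e, Cd3g and Cd247) were found in at most 1.94% of the cells of a mouse and treatment, Lck in at most 8.58% and Trac in at most 18.7%. Of 13 receptors and relatives, 4 passed the filter, with a median log2 fold change of 0.29. With the mouse as a replicate block 1 passed as higher and 1 as lower, as in DESeq2. Of all genes the block called 1.94% as higher and 1.88% as lower, and DESeq2 1.79% and 1.72%. Without the block 0 passed in edgeR, with 2 at an unadjusted p under 0.05 against 8.1% of all genes. Cd28, the receptor of Cd80 and Cd86, was found in 93.7% and 96.4% of cells with IL4+IL13 and in 62.7% and 75.8% with TNF. Its level was 322 and 400.1 CPM against 69.2 and 132 CPM, with a log2 fold change of -1.84 ± 0.35 (SE, 2 mice in each group) and an edgeR adjusted p of 0.271, or 0.0121 with the mouse as a replicate block. Pdcd1, the receptor of both PD-1 ligands, was found in at most 0.602% of cells.

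Tnfrsf9, the receptor 4-1BB, had 0.0878 and 0.0533 CPM with IL4+IL13 and 2.40 and 15.4 CPM with TNF, with a blocked edgeR adjusted p of 0.0282. Icos was found in 2.61% to 6.33% of cells. Cd40lg, the ligand of CD40, was found in 16.6% and 22.8% of the cells of mouse 1, without and with TNF. By plate it was found in 14.5% and 32.9% of the kept cells of mouse 1, at a median of 1 fragment and at most 5, and in 0 of 682 kept cells of mouse 2, which allows a share of up to 0.440%. Trac, a T cell receptor gene, followed the same plates, at 16.2% and 28.7% against 4.91% and 2.98%.

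Of 14 listed regulators of PD-L1 and PD-L2, 5 were higher and 5 lower in both mice, close to the 34.3% and 32.4% of all genes tested, and the median log2 fold change was 0.08. Jak2 passed as higher with the mouse as a replicate block and no other did, against 1.94% of all genes called higher. Without the block 0 passed in edgeR and 1 had an unadjusted p under 0.05, against 8.1% of all genes, and DESeq2 called 0. Irf4, a transcription factor induced by IL4, had a log2 fold change of -0.63, the interferon gamma receptor gene Ifngr2 had 0.59 and Irf1 had 0.38. Irf1, the gene most like Cd274 across cells, had 74.0 and 126 CPM with IL4+IL13 and 78.7 and 182 CPM with TNF, and the groups overlapped.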

How the data were processed

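Per the labels and the study's methods, the authors aligned 50 bp paired-end reads of single cells to mm10 with gsnap and counted fragments per Ensembl gene with featureCounts 1.6.3, without using strand and without molecular identifiers. The deposited values are raw counts per gene and well. Spike-in rows (92) were left out of library sizes and tests. Wells more than 3 scaled median absolute deviations below their plate's median in log fragments or log genes, or above it in mitochondrial or spike-in share, were removed (138 of 1524). Totals ran from 4607 to 6122892 fragments per well, and intervals cover counting error only. Duplicate columns were looked for and 0 were found.

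Counts of kept cells were summed by mouse and treatment (2 mice in each treatment), and genes found in at least 5% of cells were tested with edgeR 4.0.16 (R 4.3.3), TMM scaling and treatment only. DESeq2 1.42.0, limma 3.58.1 and the mouse as a replicate block were alternatives. Levels are TMM-scaled CPM of these sums, and folds within a mouse are of log2(CPM + 0.5). The same mouse was the source of both treatments, and the deviations of same-numbered sums from their group means correlated with r = 0.568 over 17034 genes. For shares and rank correlations cells were thinned to 339000 fragments with fixed seeds, where 1 fragment is 2.95 CPM. Scripts were tested on simulated data. Motifs were searched in the 250 bases before RefSeq starts, a shorter window than first planned, and 4 of the 6 genes had a match in that table. A further motif is not reported here.

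Members and lists were chosen with earlier results of these data known. From each list of related genes the 4 with the largest fold change that moved alike in both mice are named, and from the T cell receptors the 4 found in most cells. The T cell, macrophage and dendritic markers, Pdcd1, S100a8, and the genes around the PD-1 ligands are named outside that rule, after their values were seen. Of the wells, 4 samples without a group or mouse in the labels and 8 columns without a sample were not used. Per the study, the cells came from 2 independent experiments. Mouse, experiment and plate pair cannot be told apart.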

Additional observations from a re-analysis of the deposited data

How the results depend on the processing

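Under 16 alternatives the log2 fold change of Pdcd1lg2 stayed between 2.06 and 3.30 and that of Cd274 between 1.27 and 1.83, with adjusted p from 5.36e-06 to 0.461 and from 7.34e-05 to 0.468. Cd86 (0.41 to 1.61) and Icosl (0.41 to 1.82) kept their direction but passed in none of these 16. With the mouse as a replicate block the number of genes called went from 1 to 651, with Pdcd1lg2 at 2.58 and Cd274 at 1.55, both then past the threshold. With DESeq2 598 genes were called, with 2.50 and 1.51. Without the 22 Ccr7 cells, an alternative chosen after seeing the data, the block called 878, with 2.39 and 1.52. The block changed no other call among the 6 genes.

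Scaling by the spike-ins called 12 genes and moved the median of all genes to 0.15, thinned cells gave 2 and the rows next to the border 0, with 1180 at an unadjusted p under 0.05. Leaving out a mouse from 1 treatment, which gives the single remaining sum the spread of the other treatment, called 4 to 30 genes. Cd80 changed sign with library size alone (-0.0018) and in the border rows (-1.24), and ran from -0.10 to 0.26 with a sum left out. Cd40 changed sign with spike-in scaling (0.0074) and ran from -0.33 to 0.045 with a sum left out. The cause was not tested. The difference in the share of cells changed sign for Cd40 in the border rows (-2.19 percentage points) and for Icosl with at least 5 fragments (0.27) and ranged from -3.34 to 1.37 with a mouse left out. Of 48 such differences 35 kept their direction and moved by less than the SD of the 2 mice. Leaving out a mouse cannot move a difference by more than that SD, so those settings could not fail. For Cd274 the SD was only 0.095 points, and the count is no measure of stability. All 30 alternative rank correlations moved by less than their range over the 4 groups of cells, a wide measure that spans both treatments. Icosl had the fewest fragments, 79 to 275 in a sum.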

Other observations

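Some genes ran against the ligand genes across thinned cells. The lowest mean rho over the 4 groups of cells was with Csf2rb2 for Cd40 (-0.20), Anxa1 for Icosl (-0.19) and for Cd86 (-0.19), Gm6992 for Cd274 (-0.15) and Cebpb for Pdcd1lg2 (-0.14). Csf2rb2 encodes a cytokine receptor subunit, Anxa1 the phospholipid-binding protein annexin A1, and Cebpb a transcription factor of myeloid cells. Each of these genes was chosen as the extreme of 8999 after its values were seen, and the values are descriptions.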
